A study of Mus musculus with 37 samples.

Results

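The comparison described here is that of macrophages given IL-10 before and during LPS with macrophages given LPS only. Its members are genes. Tag counts of all transcripts with the same gene name were summed, and the 5955 of 6509 genes whose value reached 10 in either group were kept. The log2 ratio of IL-10 + LPS to LPS was taken after adding 1 to both values. A gene is called lowered or raised below when this ratio passed 2-fold. By this rule 256 genes (4.30% of the genes kept) were lowered and 175 (2.94%) were raised, and 5524 lay between. The series also holds untreated and IL-10 only macrophages, and the same treatments in bone marrow neutrophils, in dendritic cells of the spleen (sDCs) and in mast cells, and eosinophils with and without LPS, with 36 libraries in 18 groups of the table.

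The macrophages were adherent peritoneal exudate cells of C57Bl6cJ mice, elicited with thioglycollate. The LPS group (PEC macrophage -IL10 +LPS) received LPS, a bacterial endotoxin, at 100 ng/ml for 4 h. The IL-10 + LPS group (PEC macrophage +IL10 +LPS) received IL-10 at 100 ng/ml for 4 h, followed by the same dose of LPS for 4 h more. The untreated group (PEC macrophage -IL10 -LPS) and the IL-10 group (PEC macrophage +IL10 -LPS) were harvested without the LPS step, so in macrophages LPS goes together with a longer culture. No genotype other than the strain, and no age or sex, is given in the sources used here. Replicates were cells of independent mice, and the labels trace replicate 1 of both groups without LPS to a library of an earlier study. For each group the table gives a single value per transcript, the authors' mean of 2 replicates. No SD and no test can be given from it, every fold change below is a difference between means without a replicate check, and "called" means past 2-fold and nothing more.

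LPS is recognized by TLR4 with its partners Cd14 and Ly96, which signal through NF-kB, MAP kinases and interferon regulatory factors, and macrophages respond with a rapid burst of cytokine transcription. IL-10 binds a receptor of Il10ra and Il10rb chains and acts through JAK kinases and the transcription factor STAT3. In macrophages it is known as a restraint on inflammatory cytokines and on the molecules that activate T cells.

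The cells carried macrophage transcripts in both groups. Cd68 stood at 95151.5 with LPS and 77545.5 with IL-10 + LPS, Emr1 (F4/80) at 16808 and 13108, and Itgam (Mac-1) at 17078 and 21153. The 4 macrophage markers held here summed to 134463 with LPS and 116229 with IL-10 + LPS, and to 238438 in untreated cells. Of the neutrophil markers, Ly6g and Elane were listed at 0 in both LPS groups. The 6 held here summed to 612.5 with LPS and 616 with IL-10 + LPS, of which Mmp8 made up 590.5 and 599.5. Of the 2 eosinophil markers held here, Epx was listed at 0 in both LPS groups and Ccr3 was at 15.5 and 32.5. With LPS and with IL-10 + LPS the sums were 335.5 and 245.5 for 4 B cell markers, 7801.5 and 5704 for 4 dendritic cell markers (Itgax made up most of them) and 15688 and 13503 for 6 mesothelial and fibroblast markers. For 3 mast cell and basophil markers the sums were 217.5 and 303, and for 2 T and NK cell markers 48.5 and 36. The part of such cells in the results below was not tested. In bulk RNA, fewer cells of a type and less RNA per cell cannot be told apart.

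Most genes differed little between the groups. The median log2 ratio was -0.01 and the median absolute ratio 0.20, and 4956 genes (83.2%) lay within 1.5-fold. Values had been normalized by the authors, and a shift of all genes together was not tested. Lowered genes had a median log2 ratio of -1.46 and raised genes of 1.499, and 68 and 54 passed 4-fold. Calls were frequent among genes of low value. Of 656 genes whose higher value lay between 10 and 50, 132 (20.1%) were lowered and 90 (13.7%) raised, against 34 and 41 of the 2277 genes at 1000 or more. With IL-10 + LPS 20 lowered genes were listed at 0, and with LPS 15 raised genes were. For this reason the genes described one by one are mainly the 98 lowered and 66 raised genes whose higher value was at least 100. Just inside the threshold were Cytip (177.5 with LPS and 88 with IL-10 + LPS) and Olr1 (2283 and 1140) among lowered genes, and Gab1 (388.5 and 778) and Ccr2 (93 and 188) among raised genes. Just outside were Crlf3 (2853 and 1428), Ninl (124.5 and 62), Fnip2 (2985 and 5926.5) and Gyk (2087.5 and 4173).

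**Figure D1:**
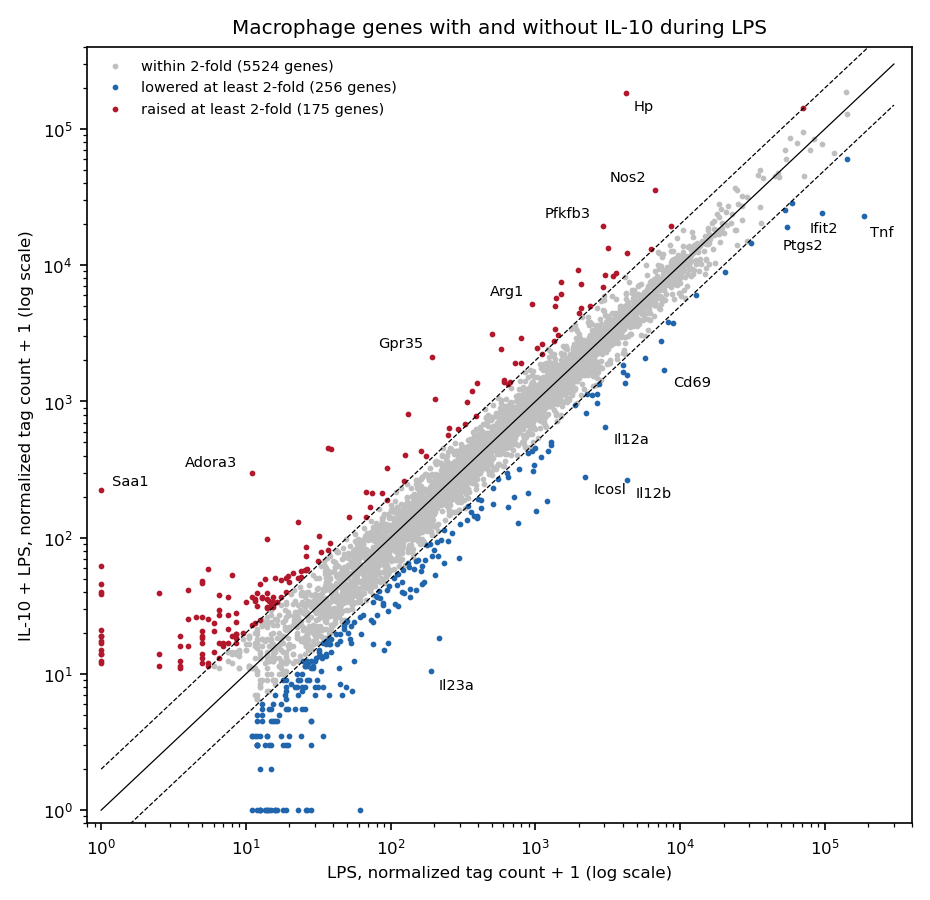
Normalized tag count + 1 of each of 5955 genes in macrophages with LPS (horizontal) and with IL-10 + LPS (vertical), both on log scales, 1 point per gene and each value the authors' mean of 2 replicates. The solid line marks equal values and the dashed lines 2-fold, with 256 genes (blue) below and 175 (red) above, and both sets are widest among genes of low value.

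Among the 18 gene groups examined, cytokines held the largest share of lowered genes. Of 73 listed cytokines 32 are held here and 30 were kept, and the others were not analysed. Of the 30 kept, 12 (40.0%, beside 4.30% of all genes) were lowered and 2 (6.67%, beside 2.94%) raised. Their median log2 ratio was -0.57, beside -0.01 over all genes. Il12b encodes p40, shared by IL-12 and IL-23, and was at 8 in untreated cells, 8.5 with IL-10, 4281.5 with LPS and 266 with IL-10 + LPS, a log2 ratio of -4.00. Il23a, the p19 chain that pairs with p40 to form IL-23, was at 3, 0, 188 and 9.5 in the same order (log2 ratio -4.17). Il12a, the p35 chain of IL-12, was at 10.5, 0.5, 3050 and 644 (-2.24). All 3 had their highest value with LPS, and with IL-10 + LPS they still lay above the level of untreated cells. Il27, which encodes the p28 chain of IL-27, was at 14, 59, 5752.5 and 2087.5 (-1.46), while its partner chain Ebi3 was at 1896 with LPS and 1985 with IL-10 + LPS.

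Tnf, the macrophage cytokine of acute inflammation, was at 712.5 in untreated cells, 873 with IL-10, 185338 with LPS and 22865 with IL-10 + LPS. Its value with LPS is the highest that any transcript has in the table, and the same in every group, so the log2 ratio of -3.02 depends on that shared maximum. Lta, its neighbour and relative, was at 148 with LPS and 40 with IL-10 + LPS (-1.86), and Cd70, a ligand for CD27 on T cells, at 33 and 7 (-2.09). Lif, a cytokine that signals through gp130, was at 26, 17.5, 1001.5 and 155 over the 4 groups, a log2 ratio of -2.68. Osm, of the same family, was at 398.5 with LPS and 190 with IL-10 + LPS (-1.06). Csf2 (GM-CSF), listed at 0 in both groups without LPS, was at 89.5 with LPS and 14 with IL-10 + LPS (-2.59). Il15 and Il18, which act on NK and T cells, had log2 ratios of -1.47 and -1.09.

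The cytokines that passed 2-fold upward were Il19, a member of the IL-10 family, and Tnfsf14 (LIGHT). Il19 was listed at 0 without LPS and stood at 86.5 with LPS and 211 with IL-10 + LPS (log2 ratio 1.28). Tnfsf14 was at 24 in untreated cells, 333 with IL-10, 4 with LPS and 47.5 with both, so that each group with IL-10 lay above its partner. Il10 itself, which LPS-treated macrophages transcribe, was at 495 with LPS and 343.5 with IL-10 + LPS (-0.53). Csf3 (G-CSF), Inhba and Tnfsf9 were within 1.5-fold. Of 37 listed chemokines, 7 are held here and 6 were kept. Of these, 2 (33.3%) were lowered and 0 raised, beside 4.30% and 2.94% of all genes. Ccl22, a ligand of CCR4, was at 1212 with LPS and 431.5 with IL-10 + LPS (-1.49). Ccl17, another ligand of that receptor, was at 18 and 6.5. Cxcl16 was at 8714.5 and 9787.

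The promoters of some genes in this comparison are printed to show the sequences next to which these changes were measured. Each is the 300 bases before the start of the gene's most abundant transcript, on NCBIM37 (mm9), 5′ to 3′ on the gene's strand. Capitals mark matches on either strand to 4 consensus motifs, for NF-kB (GGGA and TTCC with 2 bases between), STAT factors (TTCNNNGAA), interferon regulatory factors (GAAA repeated after 2 bases) and AP-1 (TGANTCA), and to a looser form of the NF-kB (kappaB) consensus that was added after the first counts had been seen. Every match to the strict NF-kB motif is also a match to the looser form. Il23a (chr10:127735141-127735440, minus strand) holds a looser kappaB match at position -105 and an AP-1 match at -87, counted from the transcript start. Lif (chr11:4157260-4157559, plus strand) holds an AP-1 match at -217 and a looser kappaB match at -167. Cd69 (chr6:129225388-129225687, minus strand) holds a STAT match at -225 that overlaps a strict NF-kB match at -220.
Il23a: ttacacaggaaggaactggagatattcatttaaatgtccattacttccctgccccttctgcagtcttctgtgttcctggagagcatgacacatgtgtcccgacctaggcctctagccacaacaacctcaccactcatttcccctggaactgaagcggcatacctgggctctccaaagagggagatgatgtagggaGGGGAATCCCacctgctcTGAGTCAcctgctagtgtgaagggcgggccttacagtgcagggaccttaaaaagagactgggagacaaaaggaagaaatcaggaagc
Lif: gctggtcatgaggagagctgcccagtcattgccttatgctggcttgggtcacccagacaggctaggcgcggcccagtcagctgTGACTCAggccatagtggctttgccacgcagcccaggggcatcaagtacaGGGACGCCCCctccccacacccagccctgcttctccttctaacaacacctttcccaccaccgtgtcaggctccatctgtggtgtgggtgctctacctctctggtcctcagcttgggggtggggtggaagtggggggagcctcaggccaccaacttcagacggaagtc
Cd69: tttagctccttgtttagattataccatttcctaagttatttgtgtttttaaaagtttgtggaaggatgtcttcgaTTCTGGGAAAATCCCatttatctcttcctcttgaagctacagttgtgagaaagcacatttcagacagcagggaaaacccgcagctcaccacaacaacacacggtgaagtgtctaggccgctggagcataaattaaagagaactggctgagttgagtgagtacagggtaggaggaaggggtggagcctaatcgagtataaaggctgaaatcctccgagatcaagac

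Among the lowered interferon-induced genes and cytokines, Ifit1 (chr19:34715061-34715360, plus strand) has interferon motif matches at -86 and -67, and Ifit3 (chr19:34657721-34658020, plus strand) at -158 and -124. Il27 (chr7:133738456-133738755, minus strand) has an interferon motif match at -48. Ifit3 also holds an AP-1 match at -58. The window of Ifit2, the most lowered of the Ifit genes, holds no interferon motif match. It holds a strict NF-kB match at -263 and a STAT match at -257. The windows of Il12b and Tnf hold no match to any of these motifs.
Ifit1: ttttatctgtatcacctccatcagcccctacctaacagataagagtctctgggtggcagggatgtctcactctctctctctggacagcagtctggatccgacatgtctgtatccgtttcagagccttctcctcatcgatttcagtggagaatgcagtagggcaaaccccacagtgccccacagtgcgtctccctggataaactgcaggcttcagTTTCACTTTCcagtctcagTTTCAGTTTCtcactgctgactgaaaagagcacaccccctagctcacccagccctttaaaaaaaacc
Ifit3: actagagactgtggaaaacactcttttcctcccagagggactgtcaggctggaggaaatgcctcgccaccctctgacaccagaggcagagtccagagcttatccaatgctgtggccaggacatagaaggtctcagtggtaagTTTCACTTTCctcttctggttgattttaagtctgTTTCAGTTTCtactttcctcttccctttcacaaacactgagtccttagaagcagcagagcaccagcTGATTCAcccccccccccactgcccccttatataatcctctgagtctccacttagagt
Il27: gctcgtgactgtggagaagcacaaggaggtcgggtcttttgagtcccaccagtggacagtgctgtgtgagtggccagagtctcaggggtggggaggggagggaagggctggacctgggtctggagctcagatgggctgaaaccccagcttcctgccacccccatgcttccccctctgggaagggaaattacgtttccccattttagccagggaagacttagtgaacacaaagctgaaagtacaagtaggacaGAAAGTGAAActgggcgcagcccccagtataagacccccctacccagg

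For 2 raised genes the same windows are given. Nos2 (chr11:78733989-78734288, plus strand) holds a looser kappaB match at -46, and Mt2 (chr8:96696218-96696517, plus strand) an AP-1 match at -79.
Nos2: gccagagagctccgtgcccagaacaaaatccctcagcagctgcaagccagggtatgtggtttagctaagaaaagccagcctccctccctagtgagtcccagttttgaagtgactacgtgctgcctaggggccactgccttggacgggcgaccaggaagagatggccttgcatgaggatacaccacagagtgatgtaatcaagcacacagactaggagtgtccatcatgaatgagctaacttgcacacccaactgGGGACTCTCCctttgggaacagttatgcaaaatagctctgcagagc
Mt2: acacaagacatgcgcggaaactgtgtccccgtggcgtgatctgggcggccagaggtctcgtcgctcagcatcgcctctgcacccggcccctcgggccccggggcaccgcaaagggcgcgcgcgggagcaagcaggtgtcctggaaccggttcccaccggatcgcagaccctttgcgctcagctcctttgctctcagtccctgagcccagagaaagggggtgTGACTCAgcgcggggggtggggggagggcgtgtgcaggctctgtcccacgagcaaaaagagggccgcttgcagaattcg

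Each motif lay in a minority of the promoters of either set. Among all called genes with a promoter, AP-1 matches lay in 11.0% of 254 lowered genes, 9.77% of 174 raised genes and 5.86% of 5951 kept genes, and with a higher value of at least 100 in 15.3% of 98, 12.1% of 66 and 5.71% of 4847. The looser kappaB form was found in 14.2%, 8.62% and 10.3%, and with at least 100 in 18.4%, 10.6% and 10.4%. The strict NF-kB motif was in 1.57%, 1.15% and 1.53% (2.04%, 0% and 1.51% with at least 100). The order turned for the interferon motif, which was in 3.54% of lowered, 2.30% of raised and 4.44% of kept genes, but in 7.14%, 1.52% and 4.48% of those of at least 100. The STAT motif, TTCNNNGAA, was in 6.30%, 4.02% and 7.53% (7.14%, 4.55% and 7.61% with at least 100). The shares with at least 100, over 98 lowered and 66 raised promoters, rest on few promoters with a match. These were 15 and 8 for AP-1, 7 and 3 for STAT and 7 and 1 for the interferon motif. The 7 lowered genes with an interferon motif match include Ifit1, Ifit3 and I830012O16Rik. The windows of Ifit3 and I830012O16Rik hold the same matched sequences. A match describes letters in a window, not a bound site.

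Most molecules by which macrophages engage T cells lay within 2-fold. Of 26 genes of antigen presentation and co-stimulation, 3 (11.5%) were lowered and 1 (3.85%) raised, beside 4.30% and 2.94% of all genes. The other 22 were between, and the median was 0.07. Icosl, the ligand of ICOS, was at 128.5 untreated, 92 with IL-10, 2197 with LPS and 277.5 with IL-10 + LPS, a log2 ratio of -2.98. Cd80 was at 1085 with LPS and 388 with IL-10 + LPS (-1.48) and the adhesion molecule Icam1 at 12941.5 and 6081 (-1.09). Cd86, which shares its receptors with Cd80, was at 1072 and 897.5 (-0.26), and Cd40 at 9902.5 and 6227 (-0.67). The raised gene was March1, a ubiquitin ligase that removes MHC class II and CD86 from the cell surface, at 1610.5, 2921, 2053 and 7330.5 over the 4 groups (1.84). The class I genes H2-K1 and H2-D1 had ratios of 0.17 and 0.21.

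The interferon-induced genes held here that passed 2-fold all lay in the Ifit cluster on chromosome 19. Of 91 listed, 48 are held here and were kept, and the others were not analysed. Of the 48 kept, 4 (8.33%) were lowered and 0 raised, beside 4.30% and 2.94% of all genes. Their median was -0.15, and 38 of the 48 lay below 0, as did 3055 of all 5955 genes. All 4 were Ifit genes, which encode RNA-binding antiviral proteins, or a gene of that cluster. Ifit2 was at 313 untreated, 1088 with IL-10, 95036.5 with LPS and 24330.5 with IL-10 + LPS, a log2 ratio of -1.97. Ifit1 was at 53218 with LPS and 25270.5 with IL-10 + LPS (-1.07), Ifit3 at 20358 and 8988 (-1.18) and I830012O16Rik at 4193.5 and 1357.5 (-1.63). Ifit3 and I830012O16Rik are near-identical in sequence, so reads could have been split between them. Oasl1 (-0.93) and Ifih1 (-0.83), the sensor MDA5, came next without passing 2-fold. Guanylate-binding proteins and immunity-related GTPases were close to 0 (Gbp5 -0.14, Irgm1 -0.11, Igtp -0.05) and Gbp2 was at 0.42. Olfr56 (214 with LPS and 17.5 with IL-10 + LPS) is uncertain, since it overlaps the interferon-induced gene Ifi47 on the same strand. Ifi47 was at 5838.5 and 5619.

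Of the genes that carry the LPS signal only a part was analysed here, 28 of 54 listed receptors and adaptors, 9 of 20 NF-kB genes and 4 of 11 interferon regulatory factors, and the LPS receptor itself is not among them. Of the 28 pattern recognition receptors and adaptors, 2 (7.14%) were lowered and 1 (3.57%) was raised, beside 4.30% and 2.94% of all genes. Their median was -0.15. The lowered genes were Peli1, a ubiquitin ligase of TLR signaling, and Tlr9, both with low margins at -1.12 and -1.05. Tlr1, Tlr7 and Tlr8 had ratios of -0.75, -0.70 and -0.83, Irak2 of -0.86 and Ly96 of 0.06. The raised gene was Lbp, the LPS-binding protein, at 73.5 with LPS and 211 with IL-10 + LPS (1.51). Of 9 NF-kB subunits and inhibitors 0 were called. Nfkb1 was at 17321 and 10407 (-0.73), Rel at -0.60, Nfkb2 at -0.42 and the inducible cofactor Nfkbiz at -0.66, while Tnfaip3 (A20) was at -0.08 and the inhibitors Tnip1 and Tnip2 at 0.41 and 0.74. Of 4 interferon regulatory factors 0 were called, with Irf1 at -0.50, Irf5 at -0.57 and Irf3 at 0.10. Among 23 genes of MAP kinases, AP-1 and mRNA decay, 0 were lowered and 1 (4.35%) was raised, beside the same shares of all genes. Their median was -0.02, and Jund was at -0.90.

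Among inflammatory effectors, 5 of 39 (12.8%) were lowered and 6 (15.4%) raised, beside 4.30% and 2.94% of all genes, with a median of 0.02. Ptgs2 (COX-2), which makes the precursor of prostaglandins, was at 431 untreated, 427 with IL-10, 54932.5 with LPS and 19078 with IL-10 + LPS, a log2 ratio of -1.53. Other enzymes of that pathway lay on the opposite side. Pla2g4a, the phospholipase that releases arachidonic acid, was at 1372 with LPS and 3402 with IL-10 + LPS (1.31), and the prostaglandin E synthase Ptges at 10388 and 18140.5 (0.80). Cd69, an early activation marker, was at 72, 84, 7787 and 1703.5 over the 4 groups (-2.19), and Tnfaip2 at -1.07. Shisa3, which overlaps Atp8a1 on the opposite strand, was at 708.5 and 199 (-1.83). Serpina3g was at 2460.5 and 1112.5 (-1.14), and reads could be split between it and Serpina3f (-0.78). C3 (-0.81) and Mmp9 (-0.73) did not pass 2-fold, and neither did Saa3 (0.43).

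The inducible nitric oxide synthase and arginase, which compete for arginine and are often set against each other as signs of classical and alternative activation, were both raised. Nos2 was at 19 in untreated cells, 65 with IL-10, 6709 with LPS and 35477.5 with IL-10 + LPS, a log2 ratio of 2.40. Arg1 was at 3358.5, 7570, 944.5 and 5187 in the same order (2.46). Nos2 was high in the LPS groups only, whereas Arg1 was lowest with LPS. Mrc1 (CD206) was at 1998 with LPS and 4465 with IL-10 + LPS (1.16). Mrc1 and Arg1 were the 2 raised genes (10.5%) among 19 scavenger, Fc and alternative activation genes, beside 2.94% of all genes. Of the 19, 0 were lowered, beside 4.30% of all genes, and the median was -0.11. Chi3l3 (Ym1) and Retnla (Fizz1) had ratios of 0.26 and -0.11.

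Acute phase genes included the largest raised values. Hp encodes haptoglobin, which binds free hemoglobin. It was at 3366 untreated, 4826.5 with IL-10, 4208 with LPS and 185338 with IL-10 + LPS, and the last value is the shared maximum of the table, on which the log2 ratio of 5.46 depends. Saa1 and Saa2, serum amyloid A genes with near-identical sequences, were listed at 0 in the 3 other macrophage groups and at 222.5 and 45 with IL-10 + LPS. No fold change is given for them. Lrg1, a leucine-rich glycoprotein of the acute phase, was at 45, 320.5, 36 and 451.5 over the 4 groups (3.61), so that it was high in both groups with IL-10. Timp1, an inhibitor of metalloproteinases, was at 3608.5 with LPS and 8760.5 with IL-10 + LPS (1.28). Mt2, a metallothionein that binds zinc and copper, was at 1985 and 9187 (2.21), and Mt1 beside it had a ratio of 1.47.

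**Figure D2:**
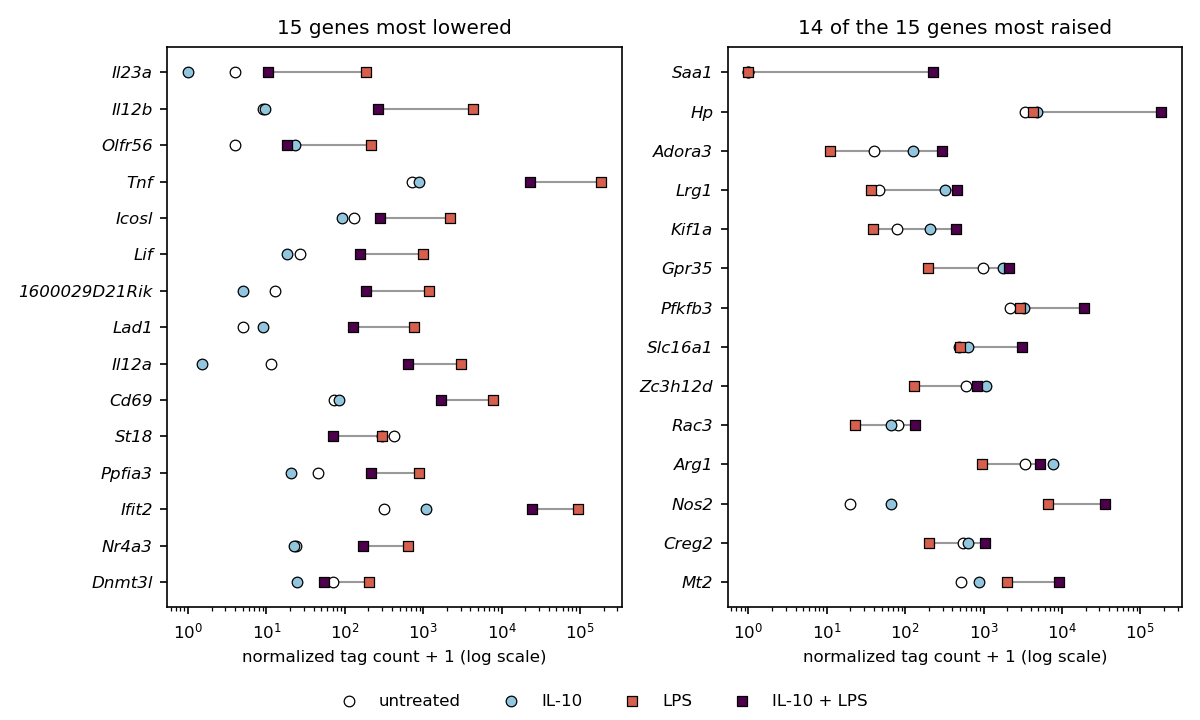
Normalized tag count + 1 (log scale) of the 15 most lowered (left) genes and of 14 of the 15 most raised (right) genes with a value of at least 100, in the 4 macrophage groups, 1 point per group. The grey line joins LPS and IL-10 + LPS. The genes were chosen on the gap between those 2 groups. The value of Tnf with LPS and that of Hp with IL-10 + LPS are the farthest to the right, both at 185338.

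Receptors of chemokines made up most of the raised receptor genes. Of 40 cytokine and chemokine receptors, 5 (12.5%) were raised and 3 (7.50%) lowered, beside 2.94% and 4.30% of all genes, with a median of 0.03. Ccr1, a receptor for Ccl3 and Ccl5, was at 2812 untreated, 6390.5 with IL-10, 793 with LPS and 2901.5 with IL-10 + LPS, a log2 ratio of 1.87. Its LPS group was the lowest of the 4 and its IL-10 group the highest. Ccr2, the receptor for Ccl2, was at 93 with LPS and 188 with IL-10 + LPS (1.01), Ccr3 at 15.5 and 32.5 (1.02) and Il12rb1, the chain shared by the IL-12 and IL-23 receptors, at 16.5 and 48 (1.49). Lowered receptors had small values. Cx3cr1 was at 79 and 36, Cxcr2 at 18 and 8, and Cxcr3 was at 13.5 with LPS and listed at 0 with IL-10 + LPS. The chains of the IL-10 receptor, Il10ra and Il10rb, had ratios of -0.64 and -0.20.

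Of 47 listed targets of IL-10 and STAT3, 23 are held here and 22 were kept, and the others were not analysed here. Of the 22, 3 (13.6%) were raised, Ccr1 and Jak3 among them, and 1 (4.55%) was lowered (Cish), beside 2.94% and 4.30% of all genes, with a median of 0.00. Jak3, a kinase of cytokine receptors, was at 727.5 untreated, 1409.5 with IL-10, 649 with LPS and 1335.5 with IL-10 + LPS (1.04). Its annotated span overlaps Insl3 on the same strand. Ptpn1, a phosphatase of JAK kinases, was at 4137.5 with LPS and 8208.5 with IL-10 + LPS (0.99), and the corepressor Sbno2 at 3363 and 5973 (0.83). Inpp5d (SHIP1) was at 890.5 and 1502.5 (0.75) and Hmox1 at 13100.5 and 14562.5 (0.15). Cish, a STAT5-induced inhibitor of the SOCS family, was at 644.5 and 276 (-1.22), and Socs2 was at 165.5 and 93.5 (-0.82). Over 17 JAK, STAT and SOCS genes the median was -0.35, with Stat4 at -0.86, Tyk2 at -0.55 and Stat6 at 0.12.

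Of the metabolic genes a regulator and a transporter of glycolysis were raised. Pfkfb3 makes fructose 2,6-bisphosphate, the activator of phosphofructokinase, and was at 2187.5 untreated, 3265 with IL-10, 2947.5 with LPS and 19353 with IL-10 + LPS (2.71). Slc16a1 (MCT1), which carries lactate and other monocarboxylates, was at 479.5, 626, 497 and 3104.5 (2.64). In both, the 3 groups other than IL-10 + LPS lay within a narrow range. These were the 2 raised genes (5.71%) among 35 of glycolysis and central carbon metabolism, with 0 lowered, beside 2.94% and 4.30% of all genes. The median was 0.03, and Slc16a3, Hk3 and Ldha were at 0.72, 0.56 and 0.50. Of 34 lipid and sterol genes 1 (2.94%, beside 2.94% of all genes) was raised and 0 lowered. This was Dgat2, a triglyceride synthase, at 251.5 and 637 (1.34), and the cholesterol exporter Abca1 was at 0.85. Of 33 lysosome and autophagy genes and 18 housekeeping genes 0 were called, with medians of 0.09 and 0.08. E2f8 (393.5 and 138.5) was lowered, the 1 call (4%) among 25 cell cycle genes, beside 4.30% of all genes.

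**Figure D3:**
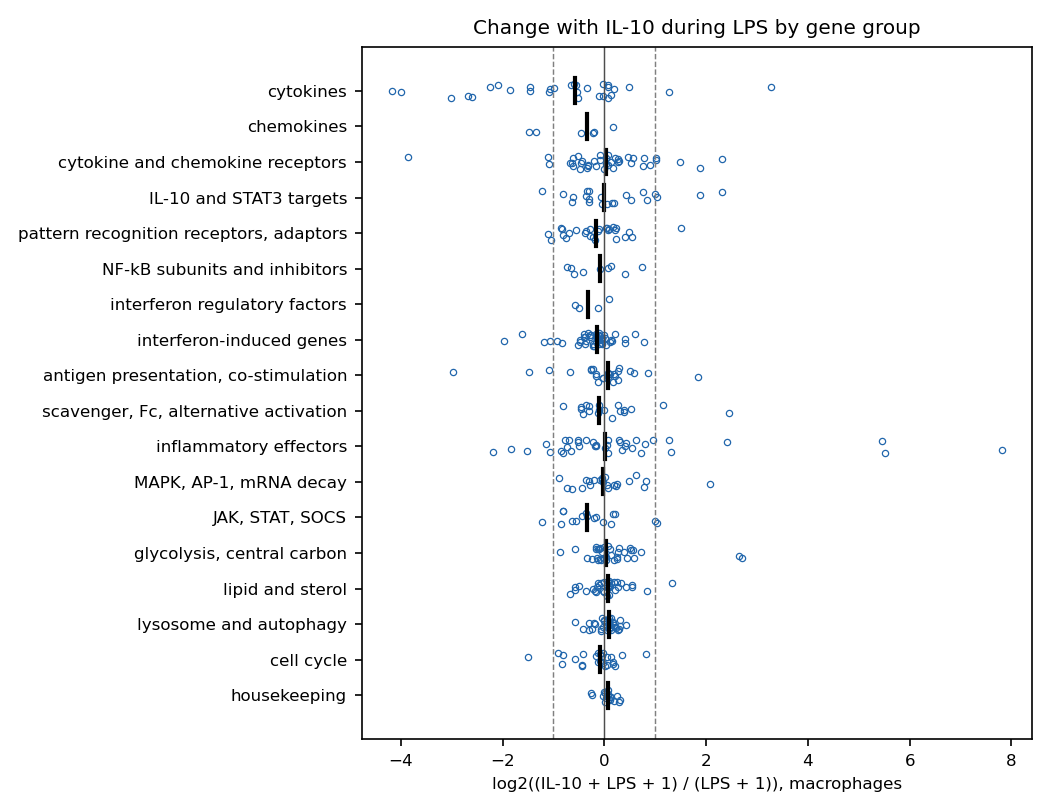
Log2 ratio of IL-10 + LPS to LPS for the kept genes of 18 gene groups in macrophages, 1 circle per gene, with the median of each group as a black bar. Dashed lines mark 2-fold and the thin solid line the median of all 5955 genes, and cytokines have the lowest median (-0.57) while housekeeping genes lie between -0.26 and 0.30.

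Outside these groups, several genes with large ratios belong to signaling or are less well described. Adora3, the adenosine A3 receptor, was at 39.5 untreated, 125 with IL-10, 10 with LPS and 296.5 with IL-10 + LPS (4.76). Gpr35, a G protein-coupled receptor, was at 984, 1781.5, 192.5 and 2133.5 (3.46), and Kif1a, a kinesin encoded beside it, at 77.5, 206.5, 38 and 448.5 (3.53). In each of these 3 genes the LPS group was the lowest and the IL-10 + LPS group the highest. Zc3h12d, a relative of the RNase Regnase-1, was at 130 with LPS and 812 with IL-10 + LPS (2.63), the GTPase Rac3 at 22 and 130.5 (2.52) and Creg2 at 202.5 and 1044.5 (2.36). Among lowered genes, Lad1 was at 752 and 127 (-2.56), 1600029D21Rik at 1202 and 186.5 (-2.68) and Ppfia3, a liprin, at 883.5 and 212 (-2.05). The nuclear receptor Nr4a3 was at 644.5 and 167.5 (-1.94). St18, a zinc finger factor, was at 419.5, 301, 295.5 and 70, with its highest value in untreated cells. Dnmt3l (200.5 and 52.5) overlaps Aire on the opposite strand, which was listed at 0.

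Some called genes lay next to each other. Of 207 lowered genes with another measured gene within 100 kb, 39 (18.8%) had a lowered neighbour, against 6.13% of all 5368 genes with such a neighbour. For raised genes it was 24 of 157 (15.3%) against 4.90%. The chemokine receptor genes Ccr1, Ccr3 and Ccr2 lie in a row on chromosome 9 from 123876959 to 124028296 (NCBIM37) and all 3 were raised, although Ccr2 and Ccr3 passed 2-fold by small margins. Other raised pairs were Gpr35 and Kif1a on chromosome 1, Lrg1 and Sema6b on chromosome 17, Mt1 and Mt2 on chromosome 8, and Saa1 and Saa2 on chromosome 7. Lowered neighbours were Tnf and Lta (chromosome 17, 35336326 to 35342296), Osm and Lif (chromosome 11, 4136423 to 4172517), Dnmt3l and Icosl on chromosome 10, Il18 and Bco2 on chromosome 9, and Ifit2, Ifit3 and I830012O16Rik (chromosome 19, 34625184 to 34687891). Neighbours include duplicated genes, between which reads can be shared.

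Macrophages also received IL-10 without LPS, and the comparison with untreated cells shares no library with the LPS pair. In it, 109 of 5932 genes (1.84%) were lowered and 120 (2.02%) raised. Of the 201 genes lowered during LPS and kept in both comparisons, 24 (11.9%) were lowered by IL-10 alone and 14 (6.97%) raised, against 1.43% and 1.73% of all 5823 genes kept in both. The 11.9% fell to 1.33% with a minimum value of 50 and to 4.65% with a pseudocount of 10. Of 154 genes raised during LPS, 28 (18.2%) were raised by IL-10 alone and 11 (7.14%) lowered. With a higher value of at least 100, 5 of 88 lowered genes (5.68%) were lowered by IL-10 alone and as many were raised, against 0.166% and 1.08% of 4832 genes at this value. Of the raised genes, 11 of 64 (17.2%) were raised and 0 lowered. Their median log2 ratios with IL-10 alone were -0.17 and 0.51. Across 4832 genes, which are not independent replicates, Pearson's r between the comparisons was 0.22 and Spearman's rho 0.20.

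The 11 genes of at least 100 raised in both settings included Adora3, Arg1, Ccr1, Kif1a, Lrg1, Nos2, Plek, Sema6b, Tgfbi and Trim30b. The 5 lowered in both were 1600029D21Rik, Dnmt3l, Il12a, Ppfia3 and Tnfaip8l3. The cut at 100 was applied to the LPS pair only, and without LPS such genes had low values. In untreated and IL-10 cells 1600029D21Rik was at 12 and 4, Il12a at 10.5 and 0.5, Ppfia3 at 45 and 19.5 and Dnmt3l at 69 and 23.5. In 5 genes the direction was opposite, raised by IL-10 alone and lowered during LPS. These were Ifit2 (313 untreated and 1088 with IL-10), Il27 (14 and 59), Serpina3g (89.5 and 329.5), Olfr56 (3 and 22) and 4932411N23Rik. No gene of at least 100 showed the reverse. Whether the change with IL-10 differs between cells with and without LPS was not tested, since the means allow no interaction term.

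**Figure D4:**
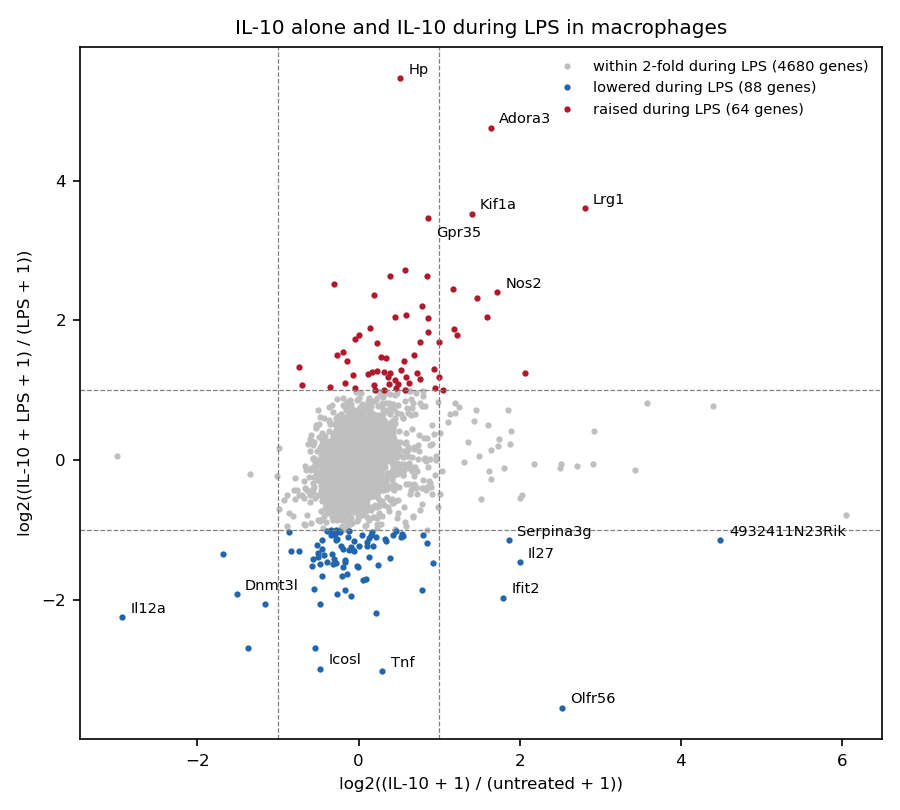
Log2 ratio of IL-10 to untreated (horizontal) and of IL-10 + LPS to LPS (vertical) in macrophages for 4832 genes with a value of at least 100 in the LPS pair, 1 point per gene, with dashed lines at 2-fold. Most lowered genes (blue, 88) and most raised genes (red, 64) lie between the vertical dashed lines, and Ifit2, Il27, Serpina3g, Olfr56 and 4932411N23Rik lie at the lower right.

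The same genes were then followed in the IL-10 + LPS and LPS groups of other cells, which share no library with macrophages. They were bone marrow neutrophils kept overnight in GM-CSF, sDCs and mast cells grown from bone marrow, each with the same doses and times. Among neutrophil genes 218 of 5879 (3.71%) were lowered and 174 (2.96%) raised, in sDCs 119 (2.00%) and 143 (2.40%) of 5946, and in mast cells 257 (4.55%) and 157 (2.78%) of 5647. Genes lowered in macrophages were lowered as well in 60 of 188 cases (31.9%) among neutrophil genes, in 23 of 208 (11.1%) among sDC genes and in 37 of 171 (21.6%) among mast cell genes, against 3.39%, 1.53% and 3.75% of all genes kept in both. Of those raised, 34.9% were raised in neutrophils (51 of 146), 23.4% in sDCs (34 of 145) and 13.4% in mast cells (18 of 134), against 2.64%, 2.15% and 2.54%. With a higher value of at least 100 in macrophages the lowered shares were 44.9%, 19.8% and 24.7%, and the raised shares 61.5%, 46.9% and 25.9%, in the same order, against 2.88%, 1.12% and 2.78% and 2.35%, 1.90% and 2.31% of all genes at this value. Pearson's r across genes was 0.57 for neutrophils, 0.46 for sDCs and 0.24 for mast cells (rho 0.41, 0.31 and 0.12, over 4716, 4730 and 4632 genes).

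Of the 98 lowered genes of at least 100, 73 were kept in all 3 other cell types. Of these, 6 (8.22%) were lowered in all 3 and 37 (50.7%) in 0 of them, against 0.218% and 95.7% of all 4584 such genes. The 6 were Il12b, Lif, Lta, Ppfia3, Tpbg and I830012O16Rik. Il12b had log2 ratios of -7.20, -3.11 and -2.72 in neutrophils, dendritic cells and mast cells. Tnf had ratios of -1.97, -1.75 and -0.88, and Lif of -2.11, -1.80 and -1.34. Of the 66 raised genes, 57 were kept in all 3, with 11 (19.3%) raised in all 3 and 17 (29.8%) in 0, against 0.349% and 95.4% of all such genes. The 11 included Jak3, Lrg1, Lrrc25, Mt1, Mt2, P2ry6, Sema6b, Slc16a1, Timp1 and Zc3h12d. Timp1 had ratios of 3.30, 4.55 and 4.57 in neutrophils, sDCs and mast cells. Those in sDCs and mast cells rest on low values with LPS, of 3 and 13.5.

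Other genes called in macrophages were within 2-fold, or called the other way, elsewhere. Arg1 had a log2 ratio of 4.46 in neutrophils, but of 0.67 in sDCs and 0.04 in mast cells. Its values were small in all of these cells. With LPS and with IL-10 + LPS it was at 2 and 65 in neutrophils, 7.5 and 12.5 in sDCs, and 17 and 17.5 in mast cells. In the same order Nos2 had ratios of 2.997, 1.19 and 0.36, and Pfkfb3 of 2.63, 0.32 and 0.53. In mast cells Ccr1 was at -1.73, beside 1.35 in neutrophils and 0.67 in sDCs. Ptgs2 was at -1.87 in neutrophils and at -0.33 and -0.25 in sDCs and mast cells, and Cish was at -0.06, -0.14 and -0.17. Whether cell types differ in these genes was not tested.

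**Figure D5:**
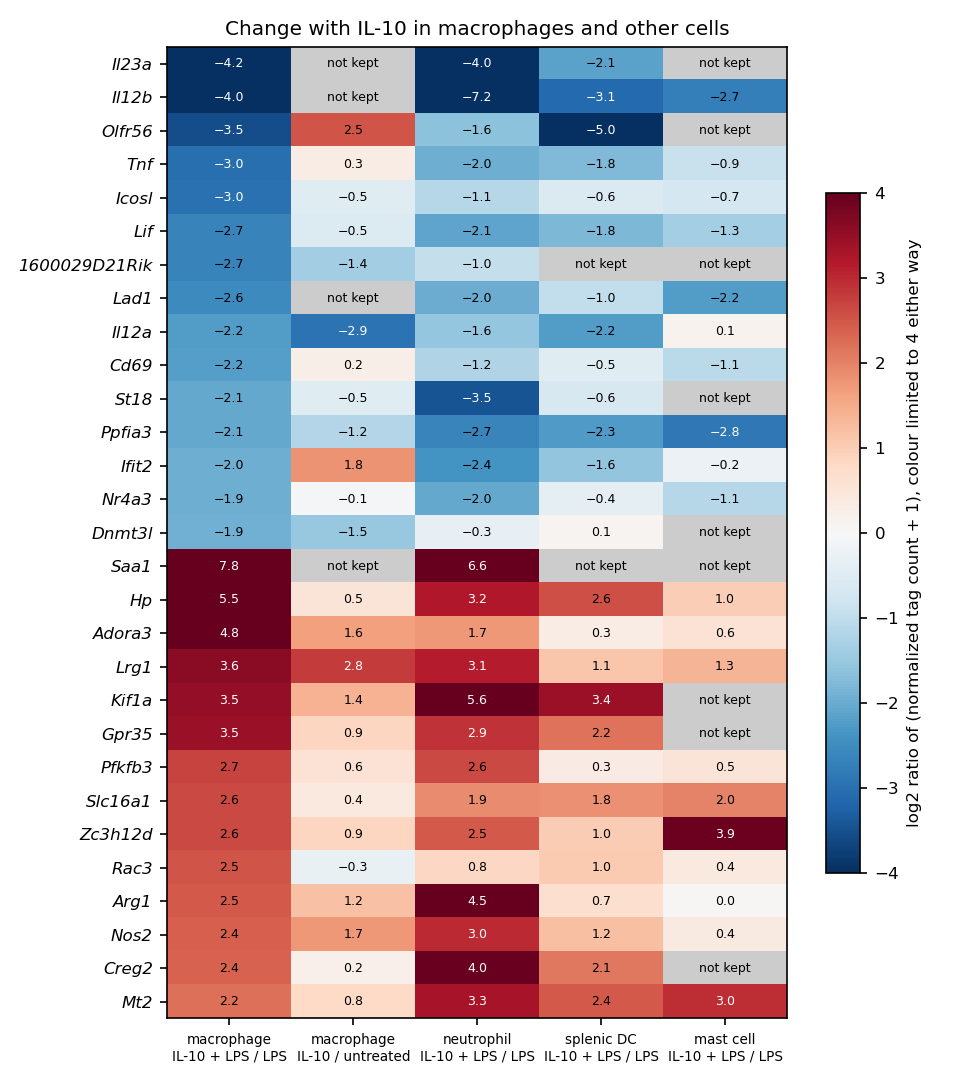
Log2 ratios of the 15 most lowered macrophage genes and of 14 of the 15 most raised (rows) in the macrophage LPS pair, in macrophages with IL-10 alone, and in the LPS pairs of neutrophils, splenic dendritic cells and mast cells (columns). Blue is lower and red higher with IL-10, with the colour limited to 4 log2 units either way, and grey marks genes whose values did not reach 10. Of the lowered genes, only Dnmt3l (-0.32) has a higher ratio in neutrophils than 1600029D21Rik (-0.96), and of the raised genes only Rac3 (0.84) is within 2-fold there.

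Gene sums can hide opposite movements of isoforms. Of 1959 genes with at least 2 transcripts of 100 or more, the median gap between the log2 ratios of their transcripts was 0.70. In 83 genes 1 transcript was lowered and another raised past 2-fold, and in 82 of them the sum of the gene was within 2-fold. The largest gaps were in Sema4c, Chtf8, Flot2, Dyrk1a and Klhdc5, in each of which 1 transcript was listed at 0 with LPS and another with IL-10 + LPS. In Dyrk1a, transcript ENSMUST00000023614 was at 212 with LPS and listed at 0 with IL-10 + LPS, ENSMUST00000168180 was listed at 0 and at 189, and the main transcript ENSMUST00000119878 was at 869.5 and 880. How reads were assigned between overlapping isoforms bears on such pairs. Of the other genes named above, Csf2, Il27, Cish, E2f8, Icam1, Nfkb2, Irf3, March1 and Creg2 overlap another annotated gene on the opposite strand. Il10rb overlaps one on the same strand, and so does Adora3, whose overlapping gene carries the same name. The sources used here do not say whether strand was used in counting. Of the 431 genes called, 264 have 1 transcript in the table, among them Il12b, Tnf, Hp, Nos2 and Arg1.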

How the data were processed

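RNA was sequenced from 5 mouse myeloid cell types, and 4 macrophage libraries (2 per group) lie behind the main comparison. In the deposited table each value is a score, made by the authors from RSEM tag estimates (version 1.2.1, with Bowtie 0.12.9, on Ensembl transcripts of mm9) by a GC correction in EDASeq and then averaging of the 2 replicates of each group. Values are multiples of 0.5, and every column has the same maximum of 185338. Whether a normalization across columns or a cap gave it is not stated. Depth is not on the scale of these values, and no counting interval can be given. By the study's account replicate 1 of both macrophage LPS groups was the shallower library. Of 37 samples 1 has no column and was not used here. The table used here holds a part of the transcriptome, 17015 complete lines and 1 incomplete. Lines with no gene name (22, 0.129%) were left out.

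The other 16993 transcripts were summed to 6509 genes with Python 3.11.15, pandas 2.3.3, numpy 2.4.6, scipy 1.17.1 and matplotlib 3.10.9. A pseudocount of 1 understates the change of low genes. Gene lists, named genes (in each direction the 15 largest changes with a value of at least 100, list members past 2-fold, and genes the study discusses) and the comparison itself were chosen with earlier results of these data known. The cut at 100 for shares was added after the values had been seen, as were the promoter window and the looser motif. A few genes were named after their values were seen, among them list members within 2-fold and genes shared between comparisons. A few genes that the rules would name are not reported here. Positions and promoters come from NCBIM37 with GENCODE vM1. The calculation was tested on simulated data. Columns of the authors' own tests are not part of this table.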

Additional observations from a re-analysis of the deposited data

How the results depend on the processing

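Counts of called genes followed the settings, since many calls lie at low values. Against 256 lowered and 175 raised of 5955 genes, a minimum of 50 left 124 and 85 of 5299. A pseudocount of 10 left 160 lowered. Without a minimum 278 of 6275 genes were raised. Counted per transcript, 1816 of 14173 were lowered and 1853 raised, larger shares than among genes and with no excess of lowered ones. Thresholds of 1.5-fold and 3-fold gave 578 and 109 lowered and 421 and 82 raised. Of the lowered genes, the share also lowered by IL-10 alone was 11.9% and moved to 4.65% with a pseudocount of 10, to 1.33% with a minimum of 50 and to 5.68% with a value of at least 100. With the minimum of 50 the raised genes were raised in 55.1%, 37.3% and 20.7% of cases in neutrophils, sDCs and mast cells. With at least 100 these were 61.5%, 46.9% and 25.9%, and for lowered genes 44.9% in neutrophils and 19.8% in sDCs.

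Medians of all gene lists moved by less than the median absolute ratio of 0.20 in each alternative run. Subtracting the median of all genes gave 58.6% lowered among called genes in place of 59.4%. Of 472 values for 80 named genes under other settings, 0 changed sign where called, 8 fell within 2-fold and 1 passed it. With a minimum of 50, Cxcr3, Cd70, Ccl17, Cxcr2, Ccr3, Il12rb1, Tnfsf14 and Saa2 were not kept and have no value. With a pseudocount of 10 the genes that fell within 2-fold were Ccl17, Cx3cr1, Cxcr2, Tlr9, Ccr2 and Ccr3. With the most abundant transcript they were Ccr3 and Jak3, and there Inpp5d passed 2-fold.

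No paired analysis was possible because the columns are means of 2 replicates and carry no replicate number. Leaving out a replicate was not run for the same reason. The planned count of genes raised by LPS and then lowered with IL-10, and its alternatives, were not run because the LPS libraries enter both steps.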
